A study of Mus musculus with 4 samples.

Results

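Gene expression in the non-infarcted part of the left ventricle was compared between 1 library labelled Neil3-/- and 1 wild-type library, 2 of the 4 libraries of the study. Both came from hearts of 8-week-old C57BL/6 mice in which an infarct had been induced 3 days earlier, so the wild-type tissue is injured-heart tissue too and not a healthy control. Libraries were made from total RNA by Illumina's standard protocol. The other 2 libraries, from infarcted tissue of the same genotypes, strain, age and time, are set beside the comparison where they help to read it. The labels name neither the deleted part of Neil3 nor the number of mice behind a library, and a sham-operated group is not analysed here. With 1 library a side no spread between animals can be measured, so no test was run, and every interval in parentheses is an exact Clopper-Pearson 95% interval of the ratio that covers counting error only.

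NEIL3 belongs to a family of glycosylases that cut oxidised bases out of DNA as the opening step of base excision repair, and it is found mostly in dividing cells. After an infarct, the muscle outside the scar takes over the pumping load. Its myocytes are stretched and switch on genes of the fetal heart, its fibroblasts lay down matrix, and macrophages resident in or recruited to the muscle clear debris and present antigen. Comparing genotypes in this tissue asks what loss of Neil3 is associated with away from the scar.

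The libraries held 14.9 M unique reads for wild type and 14.3 M for Neil3-/-, against 17.3 M and 18.2 M in infarcted tissue. A single read on a 2 kb gene is worth 0.0336 RPKM in wild type and 0.0350 RPKM in Neil3-/-, where RPKM is reads per kilobase of gene scaled to the library total. Ribosomal RNA made up 2.31% and 2.07% of reads. As a check of the labelled tissue, the 18 contractile genes summed to 46288 and 44038 RPKM in the non-infarcted libraries, against 26331 and 17518 RPKM in infarcted tissue. The Y-linked genes Ddx3y, Kdm5d, Uty and Eif2s3y had ratios of 0.952, 0.953, 1.03 and 1.03, and Xist had 15 and 4 reads, so both libraries carried male tissue.

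Neil3 itself (Entrez 234258) had more reads, not fewer, in the library labelled Neil3-/-. It stood at 1.83 RPKM in wild type (62 reads) and 12.05 RPKM in the Neil3-/- library (391 reads), a ratio of 6.57 (5.02 to 8.74). Reads covered 63.4% of its listed length in wild type and 62.9% in the other library, in spite of the larger read number there. A gene total cannot check a label when the deleted part is unknown, and all directions below are those of the library labelled Neil3-/-, called the Neil3-/- library.

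Few genes differed much. On the log2(RPKM + 1) scale, which understates the ratio of low genes, 31 of 12226 genes at 1 RPKM or more in either library were at least 2-fold higher in the Neil3-/- library (0.254%) and 23 were at least 2-fold lower (0.188%), 54 in all (0.442%). Of these, 9 and 8 were ribosomal or small noncoding RNA genes, none of them with over 10 reads in a library, which leaves 22 higher and 15 lower genes. At 1.5-fold the counts were 139 higher (1.14%) and 75 lower (0.613%). Every count of genes past 1.5-fold or 2-fold below is on this scale, so a low gene whose printed RPKM ratio is larger can fall short of it. Over all compared genes the log2 ratio had a median of 0.01. In the plot of both libraries against each other, most genes lie along the diagonal, and most genes past 2-fold are at low or middle expression, with Sprr1a the highest of them.

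**Figure D1:**
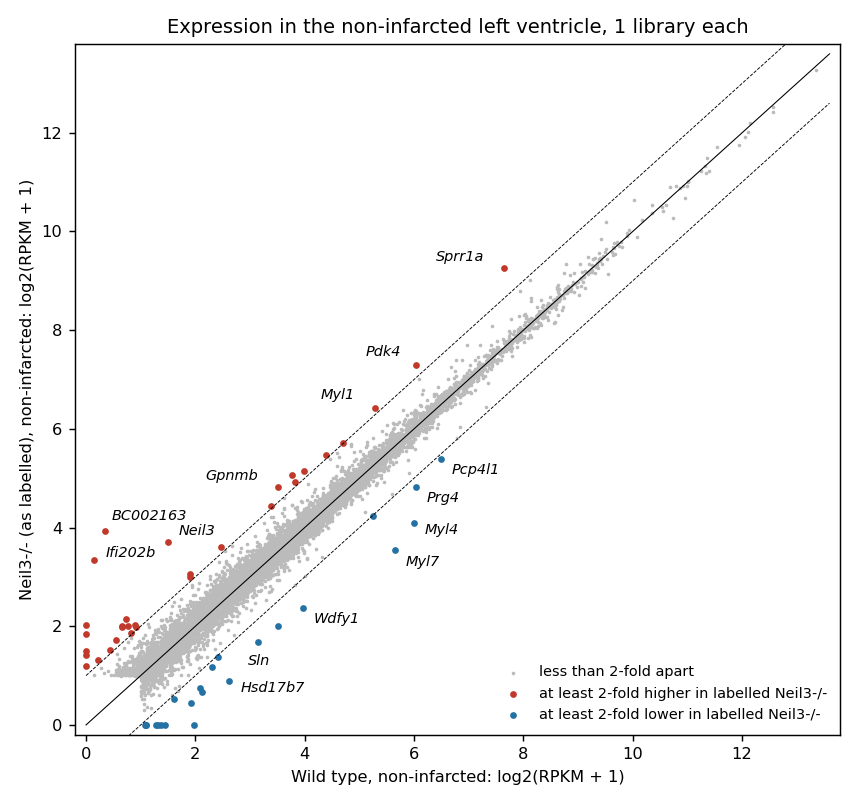
Each point is 1 of 12226 genes, with log2(RPKM + 1) of wild-type non-infarcted tissue on the x axis and of the library labelled Neil3-/- on the y axis; the solid line marks equal values and the dashed lines a 2-fold difference. The 31 red genes are at least 2-fold higher and the 23 blue genes at least 2-fold lower, among them BC002163, Ifi202b and Neil3 above the line and Myl7 and Myl4 below it.

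Among genes at 5 RPKM or more, the 15 ranked highest in the Neil3-/- library were macrophage, muscle, metabolic and secreted products besides Neil3. Ifi202b, an interferon-inducible p200 gene, was at 0.112 RPKM in wild type (3 reads) and 9.08 RPKM in the Neil3-/- library (233 reads), a ratio of 81.0 (27.4 to 395). It was all but absent from wild type, and the wide interval comes from those few reads. Sprr1a, a small proline-rich protein induced in stressed heart muscle, was the most abundant gene of the 15, at 200.1 RPKM in wild type and 608 RPKM in the Neil3-/- library, 3.04-fold higher (2.90 to 3.18). It had 2405 and 7013 reads, so counting error is small beside the difference.

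Macrophage genes and a protease inhibitor were also among the highest. Gpnmb, a membrane glycoprotein of phagocytic macrophages, was at 10.3 RPKM in wild type and 27.3 RPKM in the Neil3-/- library, 2.64-fold higher (2.40 to 2.91). Fcrls, an Fc receptor-like gene of resident macrophages, was at 14.9 against 34.3 RPKM, 2.30-fold higher (2.05 to 2.58). Ms4a7, a membrane protein of macrophages, was at 13.1 against 29.5 RPKM, 2.25-fold higher (1.88 to 2.70). Serpinb1a, which blocks neutrophil elastase and related proteases, was at 12.6 against 32.6 RPKM, 2.60-fold higher (2.30 to 2.95).

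Several muscle and metabolic genes were also in this group. Pdk4, the kinase that shuts off pyruvate dehydrogenase and so favours fat as fuel, was at 64.7 RPKM in wild type and 156 RPKM in the Neil3-/- library, 2.40-fold higher (2.31 to 2.50). Ces1d, a carboxylesterase that splits stored lipid, was at 4.54 against 11.2 RPKM, 2.48-fold higher (2.02 to 3.06). Scn4b, an auxiliary subunit of the cardiac sodium channel, was at 2.72 against 7.32 RPKM, 2.69-fold higher (2.25 to 3.23). These 3 genes act in fuel choice and excitation, whose gene lists are described further on. Myl1, which codes for a fast skeletal myosin light chain, was at 37.8 against 84.6 RPKM, 2.24-fold higher (2.02 to 2.48), and Pdlim3, a LIM protein of the Z-disc, at 20.1 against 43.3 RPKM, 2.16-fold higher (1.93 to 2.41). Sfrp2, a secreted Wnt modulator of fibroblasts, was at 9.49 against 20.7 RPKM, 2.18-fold higher (1.89 to 2.52), and Ptn, the growth factor pleiotrophin, at 2.76 against 6.96 RPKM, 2.52-fold higher (1.95 to 3.30).

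Ranked first on the log2(RPKM + 1) scale was BC002163, at 0.269 RPKM in wild type (2 reads) and 14.3 RPKM in the Neil3-/- library (102 reads), a ratio of 53.2 (14.3 to 445). RefSeq lists this gene as a transcribed pseudogene of Ndufs5, a subunit of respiratory complex I, so the assignment of reads between the copies is uncertain. Ndufs5 had 274 reads in wild type and 192 in the Neil3-/- library, 1.37-fold lower (1.13 to 1.66) by RPKM. The sum over both copies was 276 and 294 reads, or 18.5 and 20.6 RPM (reads scaled to the library total). In infarcted tissue the copies had 0 and 191 reads in wild type and 49 and 142 in the Neil3-/- library, a sum of 191 in each. The pair thus differed in how reads were split between copies far more than in its total.

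At the other end, the 15 genes ranked lowest held atrial genes, stress and inflammatory genes and a set from chromosome 1. Prg4, which codes for the lubricating proteoglycan lubricin, was at 64.3 RPKM in wild type and 27.2 RPKM in the Neil3-/- library, 2.36-fold lower (2.23 to 2.50). Chi3l3, a chitinase-like protein of alternatively activated macrophages, was at 10.4 against 2.99 RPKM, 3.48-fold lower (2.65 to 4.63), opposite to most macrophage genes. Mid1, a microtubule-bound ubiquitin ligase, was at 15.1 against 7.10 RPKM, 2.12-fold lower (1.88 to 2.39), and Pirt, a regulator of TRP channels in sensory nerve, at 13.2 against 6.15 RPKM, 2.15-fold lower (1.86 to 2.50). Igfbp3, a carrier of insulin-like growth factors, was at 47.7 against 24.6 RPKM, 1.94-fold lower (1.79 to 2.11). Among the others, Myl7, Myl4, Sln, Myh7, Egr1, Ccl7, Hsd17b7, Wdfy1 and Pcp4l1 are given with their groups.

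The same contrast in infarcted tissue uses other libraries, so it shows which differences recur in a second pair. Among the 22 higher genes, 20 (90.9%) were on the same side in infarcted tissue, where 53.7% of all compared genes had a ratio above 1, and 14 (63.6%) were at least 1.5-fold higher there (1.38% of all). Among the 15 lower genes, 12 (80.0%) were on the same side, where 46.2% of all genes had a ratio below 1, and 7 (46.7%) were at least 1.5-fold lower (1.48%). Counted at 2-fold, where 0.249% of infarcted-tissue genes were higher and 0.241% lower with noncoding genes included, BC002163, Fcrls, Ifi202b, Myl1 and Neil3 were higher in both regions. They make up 22.7% of the 22 genes and 41.7% of the 12 in infarcted tissue. Lower in both were 5 genes, among them Chi3l3, Pcp4l1, Pydc3 and Wdfy1. These 5 are 33.3% of the 15 genes and 26.3% of the 19 in infarcted tissue. Whether both regions came from the same hearts is not stated, and these names were taken after their values were seen.

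Sizes often differed between regions. Sprr1a had a ratio of 1.46 (1.43 to 1.49) in infarcted tissue, where it was at 877 and 1281 RPKM, and Gpnmb one of 1.63 (1.54 to 1.72). Prg4 had a ratio of 0.892 (0.865 to 0.920) there, close to 1, and Ces1d one of 0.854 (0.488 to 1.49) at under 1 RPKM in each library. Pcp4l1 and Pirt were further from 1 in infarcted tissue, at 0.305 (0.273 to 0.340) and 0.349 (0.280 to 0.433). No difference between regions was tested.

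**Figure D2:**
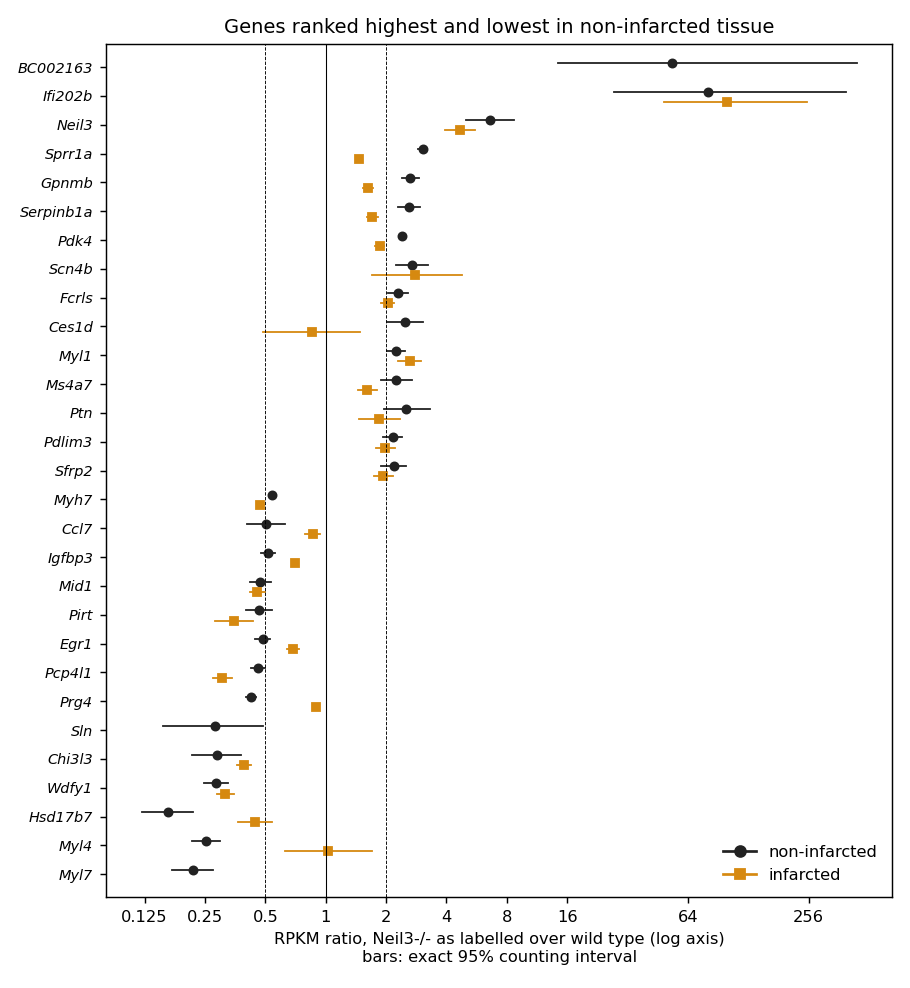
RPKM ratio of the library labelled Neil3-/- over wild type on a log axis for the 15 genes ranked highest and 14 of the 15 ranked lowest, with exact 95% counting intervals as bars, in non-infarcted (black circles) and infarcted tissue (orange squares); dashed lines mark 2-fold, and infarcted values are left out where a library had no read or both had 3 reads or fewer. Ifi202b and Neil3 are far above 1 in both regions, while Myl4 and Prg4 are low in non-infarcted tissue and near 1 in infarcted tissue.

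Macrophage genes were broadly higher in the Neil3-/- library. Of 25 compared genes of monocytes and macrophages, 22 had a ratio above 1 (53.7% of all genes) and 11 were at least 1.5-fold higher (1.14% of all), with a median log2 ratio of 0.54. Gpnmb was the 1 member past 2-fold higher (0.254% of all genes). Lyz2, the macrophage lysozyme, was at 244 RPKM in wild type and 441 RPKM in the Neil3-/- library, 1.81-fold higher (1.74 to 1.88). Emr1, the F4/80 antigen of mature macrophages, was at 11.4 against 20.1 RPKM, 1.77-fold higher (1.59 to 1.97), and Csf1r, the receptor for their main growth factor, at 28.9 against 45.5 RPKM, 1.57-fold higher (1.48 to 1.68). The exceptions were Chi3l3, 3.48-fold lower (2.65 to 4.63), Arg1, the arginase of repair macrophages, at 10.2 against 6.63 RPKM, 1.54-fold lower (1.25 to 1.92), and Lyve1, a marker of resident and lymphatic cells, at 13.3 against 11.1 RPKM, 1.20-fold lower (1.05 to 1.37). Cd163, a haemoglobin scavenger receptor of resident macrophages, was at 6.22 against 6.42 RPKM, a ratio of 1.03 (0.899 to 1.19) that includes 1. Csf1r, Arg1, Lyve1 and Cd163 were named after their values were seen. In infarcted tissue 23 of the same 25 genes had a ratio above 1 (53.7% of all genes), with a median of 0.42. In bulk tissue, a difference in the number of cells of a type and one in RNA per cell cannot be told apart, here or in any list below.

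Genes that present antigen on MHC class II were higher in the Neil3-/- library. H2-Aa, the class II alpha chain, was at 25.02 RPKM in wild type and 51.6 RPKM in the Neil3-/- library, 2.06-fold higher (1.83 to 2.33). H2-Ab1, its beta partner, was at 22.96 against 44.3 RPKM, 1.93-fold higher (1.71 to 2.18), H2-Eb1, a second beta chain, at 11.3 against 23.2 RPKM, 2.04-fold higher (1.77 to 2.37), and Cd74, the invariant chain that escorts them, at 67.5 against 128 RPKM, 1.89-fold higher (1.77 to 2.02). These 4 sat near 2-fold with overlapping intervals. Ciita, the coactivator of class II transcription, was at 0.651 against 1.25 RPKM, 1.92-fold higher (1.34 to 2.76), from few reads and named after its value was seen. H2-DMa, a peptide-loading chain, was at 5.12 against 8.46 RPKM, 1.65-fold higher (1.18 to 2.32), and was named in the same way. Over the whole antigen presentation list, 15 of 16 genes had a ratio above 1 (53.7% of all genes), with a median of 0.32. On the log2(RPKM + 1) scale 5 were at least 1.5-fold higher (1.14%) and 1, H2-Aa, passed 2-fold (0.254%), a call that ends under median-of-ratios scaling. In infarcted tissue the 4 class II genes were 1.91-fold (1.78 to 2.05), 1.74-fold (1.62 to 1.87), 1.83-fold (1.68 to 1.99) and 1.66-fold (1.60 to 1.73) higher in turn. The macrophage list moved with them, from a summed 1020.3 RPKM in wild type to 1589 RPKM, and its part in the class II difference was not tested.

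Class II promoters carry a compact module in which the Y box, an inverted CCAAT element, binds NF-Y. The promoters of 3 class II genes were chosen for display because their transcripts were higher in the Neil3-/- library and their windows hold this element. Sequences are from RefSeq on GRCm38.p6, 250 bases before to 50 after the gene start, read 5′ to 3′, with each match to TGATTGG on either strand in capitals.
H2-Aa (chr17:34287774-34288073, minus strand): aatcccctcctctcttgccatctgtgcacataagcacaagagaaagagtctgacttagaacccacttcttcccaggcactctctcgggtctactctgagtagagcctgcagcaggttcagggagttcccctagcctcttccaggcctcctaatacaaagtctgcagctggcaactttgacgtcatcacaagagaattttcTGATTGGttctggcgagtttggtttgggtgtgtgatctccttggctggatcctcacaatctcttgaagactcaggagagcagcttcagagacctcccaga
H2-Eb1 (chr17:34305617-34305916, plus strand): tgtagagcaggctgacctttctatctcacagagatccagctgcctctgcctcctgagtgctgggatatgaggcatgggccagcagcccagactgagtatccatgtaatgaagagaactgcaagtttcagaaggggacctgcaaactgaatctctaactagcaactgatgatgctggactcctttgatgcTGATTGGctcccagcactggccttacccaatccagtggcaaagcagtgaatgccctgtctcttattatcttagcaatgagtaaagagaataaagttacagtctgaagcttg
H2-DMb1 (chr17:34152941-34153240, plus strand): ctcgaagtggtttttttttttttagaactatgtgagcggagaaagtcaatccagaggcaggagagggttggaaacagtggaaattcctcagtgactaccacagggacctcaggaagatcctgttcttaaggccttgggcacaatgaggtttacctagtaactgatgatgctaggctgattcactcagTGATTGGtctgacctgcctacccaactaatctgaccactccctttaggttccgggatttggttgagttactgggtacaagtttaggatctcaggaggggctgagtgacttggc
The match began 50 bases before the start in H2-Aa, 61 in H2-Eb1 and 63 in H2-DMb1. Of 32851 promoter windows, 7.82% hold this motif, and 8 of 12 antigen presentation genes with a window did. A gene counted if any of its windows matched, while the share is per window, so the 2 are not like measures. Of these 8, only the 3 shown are class II genes, and H2-D1, H2-K1, H2-T23, Psmb9 and Tap1 belong to class I presentation and peptide processing, with ratios from 0.999 (0.844 to 1.18) to 1.27 (1.19 to 1.36). H2-DMb1, a chaperone chain that loads class II peptides and was named for its promoter, was at 2.46 against 3.92 RPKM, 1.60-fold higher (1.09 to 2.36). The H2-Aa window also holds TGACGT, a motif taken up below.

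Atrial genes were lower in the Neil3-/- library. Myl7, the regulatory light chain of atrial myosin, stood at 49.0 RPKM in wild type (437 reads) and 10.6 RPKM in the Neil3-/- library (91 reads), 4.61-fold lower (3.67 to 5.84). Myl4, its essential light chain partner, stood at 63.1 RPKM in wild type (830 reads) and 16.01 RPKM in the Neil3-/- library (202 reads), 3.94-fold lower (3.38 to 4.62). Sln, sarcolipin, the atrial brake on the calcium pump, was at 7.89 RPKM in wild type (63 reads) and 2.22 RPKM in the Neil3-/- library (17 reads), 3.56-fold lower (2.05 to 6.48). Mybphl, a myosin-binding protein of atria and conduction tissue, was at 3.91 RPKM in wild type (75 reads) and 1.25 RPKM in the Neil3-/- library (23 reads), 3.13-fold lower (1.94 to 5.23). These 4 were the only members of the list past 2-fold among 12 compared (0.188% of all genes were lower by that much), and the list median was -0.36. In infarcted tissue Myl4 was at 2.23 and 2.30 RPKM, and Myl7, Sln and Mybphl had 3 reads or fewer in each library, so no ratio is given for them.

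The other compared genes enriched in atria did not share that size of difference. Nppa, the atrial natriuretic peptide that failing ventricle also makes, was at 1715 RPKM in wild type and 1228 RPKM in the Neil3-/- library, 1.40-fold lower (1.37 to 1.43). Dkk3, a secreted Dickkopf protein of atria, was 1.46-fold lower (1.26 to 1.71), Kcnj3, an atrial potassium channel, had a ratio of 0.874 (0.760 to 1.01) and Kcna5, another, one of 1.17 (1.04 to 1.33). Gja5, an atrial and arterial connexin, had a ratio of 0.844 (0.702 to 1.01), Stard10 one of 0.930 (0.718 to 1.20), and Nr2f2, an atrial identity factor also made by veins, one of 0.821 (0.703 to 0.957). Nr2f1 had a ratio of 1.10 (0.675 to 1.80). Fgf12 was 8.25-fold lower (3.27 to 26.7), from 43 reads in wild type and 5 in the Neil3-/- library. It was under 1 RPKM in both libraries (0.942 against 0.114 RPKM) and so was left out of the list counts. Bmp10, also in the list, was not found in any of the 4 libraries, and whether the annotation used holds it is not known. How much atrial tissue each piece held is not given in the labels, and its part in these values was not tested.

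The promoter of Myl7, the gene ranked lowest, is shown with its match to the CArG box, the element bound by serum response factor, on either strand in capitals.
Myl7 (chr11:5898733-5899032, minus strand): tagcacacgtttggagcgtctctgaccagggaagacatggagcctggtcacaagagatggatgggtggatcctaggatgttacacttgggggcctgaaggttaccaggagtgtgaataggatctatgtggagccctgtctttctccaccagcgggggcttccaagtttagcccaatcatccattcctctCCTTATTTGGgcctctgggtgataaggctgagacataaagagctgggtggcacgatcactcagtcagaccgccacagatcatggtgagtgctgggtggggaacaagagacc
The match began 61 bases before the start. Of all windows 1.63% hold a CArG box. Among atrial genes Myl7 was the 1 of 12 with a window that did, while 4 of 16 contractile genes did (Actc1, Ldb3, Myl3 and Myom1). Here too a gene counted if any of its windows matched, while the share is per window. The Myl7 window also holds TGATTGG.

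Stress and fetal genes of the ventricle were mixed. Of 15 compared, 11 had a ratio below 1 (46.3% of all genes), with a median of -0.22. Of these 15, 2 were at least 1.5-fold lower (0.613%) and 1 at least 1.5-fold higher (1.14%). Myh7, the fetal beta myosin heavy chain, was at 158 RPKM in wild type and 85.9 RPKM in the Neil3-/- library, 1.84-fold lower (1.79 to 1.90). Nmrk2, the muscle kinase that makes NAD from nicotinamide riboside, was at 113 against 64.8 RPKM, 1.75-fold lower (1.65 to 1.86). Acta1, the skeletal alpha actin re-expressed in stressed heart, went the other way, at 732 against 1162 RPKM, 1.59-fold higher (1.56 to 1.62). Fetal markers that often move together in a failing heart were thus split. In infarcted tissue 14 of the 15 were below 1 (46.2% of all genes), with a median of -0.66, and Nmrk2 was 3.70-fold (3.45 to 3.98) lower.

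**Figure D3:**
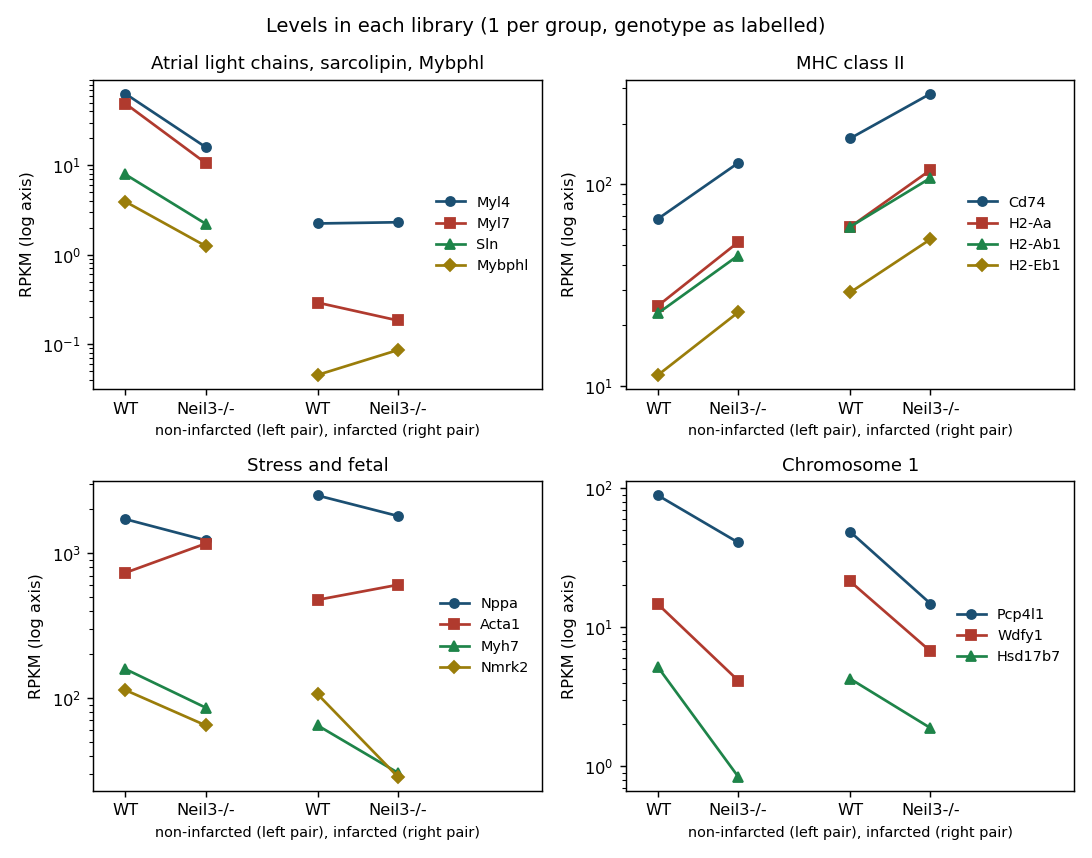
RPKM on a log axis in each of the 4 libraries (wild type and labelled Neil3-/-; left pair non-infarcted, right pair infarcted) for 4 atrial genes, 4 MHC class II genes, 4 stress and fetal genes and 3 genes of chromosome 1; lines join the genotypes within a region, and a value of 0 is not drawn. Myl7 and Mybphl in infarcted tissue rest on 3 reads or fewer. Class II and chromosome 1 genes keep their direction in both regions, and Acta1 is higher where Myh7, Nppa and Nmrk2 are lower.

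Immediate early genes, switched on within minutes of a stimulus and also by handling of tissue, were mostly lower. Of 20 compared, 17 had a ratio below 1 (46.3% of all genes), 2 were at least 1.5-fold lower (0.613%), and the median was -0.30. Egr1, a zinc finger factor, was at 36.8 RPKM in wild type and 17.9 RPKM in the Neil3-/- library, 2.06-fold lower (1.89 to 2.24), just past 2-fold. Fos, a partner in the AP-1 factor, was at 8.79 against 4.75 RPKM, 1.85-fold lower (1.51 to 2.28). Dusp1, a phosphatase that ends MAP kinase signals, was at 42.8 against 29.1 RPKM, 1.47-fold lower (1.34 to 1.60), and Ier2 at 14.9 against 10.2 RPKM, 1.46-fold lower (1.23 to 1.74). The whole list summed to 532 and 421 RPKM. In infarcted tissue 17 were below 1 as well (46.2% of all genes), with a median of -0.18.

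Many such genes answer to CREB through the cAMP response element. The promoters of 3 were chosen for display because their transcripts were lower in the Neil3-/- library and their windows hold the core of this element, TGACGT. Each match on either strand is in capitals. A palindromic TGACGTCA holds 2 overlapping matches.
Fos (chr12:85473640-85473939, plus strand): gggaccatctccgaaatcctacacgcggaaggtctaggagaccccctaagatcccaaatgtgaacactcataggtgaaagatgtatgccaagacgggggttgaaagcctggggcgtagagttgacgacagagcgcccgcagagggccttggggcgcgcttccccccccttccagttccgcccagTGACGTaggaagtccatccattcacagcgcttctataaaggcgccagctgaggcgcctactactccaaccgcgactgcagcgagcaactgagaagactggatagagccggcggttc
Dusp1 (chr17:26508423-26508722, minus strand): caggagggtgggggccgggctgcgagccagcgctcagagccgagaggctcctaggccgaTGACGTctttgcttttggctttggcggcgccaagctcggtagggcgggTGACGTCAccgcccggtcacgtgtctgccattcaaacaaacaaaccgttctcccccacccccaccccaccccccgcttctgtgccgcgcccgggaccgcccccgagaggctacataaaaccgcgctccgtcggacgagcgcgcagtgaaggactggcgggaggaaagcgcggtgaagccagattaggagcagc
Btg2 (chr1:134079106-134079405, minus strand): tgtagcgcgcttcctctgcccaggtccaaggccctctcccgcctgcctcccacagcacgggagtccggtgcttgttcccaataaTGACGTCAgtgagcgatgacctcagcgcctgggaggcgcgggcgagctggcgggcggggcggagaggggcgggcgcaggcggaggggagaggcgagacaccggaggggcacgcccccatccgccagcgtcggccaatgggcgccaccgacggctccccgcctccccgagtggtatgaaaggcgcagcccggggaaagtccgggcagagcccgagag
Fos had 1 match, 66 bases before the start, Dusp1 had 3 and Btg2 had 2. The core occurs in 7.51% of all windows and in 5 of 15 immediate early genes with a window, of which Atf3 and Egr2 had ratios slightly above 1. A gene counted if any of its windows matched, while the share is per window. Egr1 and Ier2, given above as lower, are not among these 5, for want of a match or of a window. Btg2, an antiproliferative gene also named for its promoter, was at 32.0 against 23.02 RPKM, 1.39-fold lower (1.28 to 1.51).

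Of 17 compared cytokines and chemokines, 12 had a ratio below 1 (46.3% of all genes). On the log2(RPKM + 1) scale 1, the neutrophil attractant Cxcl1 at 4.32 against 1.60 RPKM, was past 2-fold lower (0.188%), with a ratio that was 2.70-fold lower (1.64 to 4.62). The list median was -0.31. Ccl7 and Ccl2, which draw monocytes through Ccr2, were at 19.0 against 9.59 RPKM, 1.98-fold lower (1.59 to 2.47), and at 33.3 against 18.9 RPKM, 1.76-fold lower (1.49 to 2.09). Cxcl14, a chemokine of epithelium and fibroblasts, was at 4.40 against 8.90 RPKM, 2.02-fold higher (1.62 to 2.54). Ccl8 was at 4.93 against 9.07 RPKM, 1.84-fold higher (1.22 to 2.81), and Ccl5 had a ratio of 1.91 (0.906 to 4.24), both named after their values were seen. In all, 4 members were at least 1.5-fold lower (0.613% of all genes) and 3 at least 1.5-fold higher (1.14%). In infarcted tissue the list had 11 genes above 1 (53.7% of all genes) and a median of 0.18. Of 8 neutrophil genes 5 were below 1 (46.3% of all genes) and 3 above, with a median of -0.07 against 0.01 for all genes. Only 2 were at least 1.5-fold lower (0.613%). These were the iron-binding lipocalin Lcn2 at 59.1 against 33.5 RPKM, 1.77-fold lower (1.56 to 1.997), and the calprotectin subunit S100a8 at 9.42 against 5.53 RPKM, 1.70-fold lower (1.08 to 2.74). In infarcted tissue 7 of the 8 were above 1 (53.7% of all genes), with a median of 0.15, and Lcn2 was the 1 below, at 0.584 (0.528 to 0.646).

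Fat-burning genes leaned higher. Of 22 compared, 19 had a ratio above 1 (53.7% of all genes), the median was 0.15, and 2, Pdk4 and Ucp3, were at least 1.5-fold higher (1.14%). Ucp3, a mitochondrial uncoupling protein, was at 5.35 against 11.3 RPKM, 2.12-fold higher (1.78 to 2.53). Cpt2, the inner-membrane carnitine palmitoyltransferase, was at 60.2 against 78.6 RPKM, 1.30-fold higher (1.23 to 1.38), and Acot2, a mitochondrial thioesterase, at 16.4 against 20.9 RPKM, 1.28-fold higher (1.14 to 1.43). Most members thus differed little, and Pdk4 and Ucp3 by about 2-fold. In infarcted tissue the list went the other way, with 18 of 22 below 1 (46.2% of all genes) and a median of -0.18. Pdk4 and Ucp3 were still 1.86-fold (1.75 to 1.96) and 1.88-fold (1.29 to 2.76) higher there.

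Respiratory chain genes sat at the centre, with 12 of 20 above 1 (53.7% of all genes) and a median of 0.03. In infarcted tissue 20 of 20 were below 1 (46.2% of all genes), with a median of -0.33. Contractile genes had 15 of 18 below 1 (46.3% of all genes) but small sizes, with a median of -0.09 here and -0.59 in infarcted tissue. Myom2, an M-band protein, was lowest at 0.842 (0.824 to 0.860). Glycolysis and hypoxia genes (median -0.03, 12 of 20 below 1 against 46.3% of all genes) and NAD genes (median 0.04) showed no member past 2-fold. Nmrk2 was the 1 member of either past 1.5-fold (0.613% of all genes were lower by that much).

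Ion channel genes had 11 of 18 below 1 (46.3% of all genes) and a median of -0.15. Scn4b was the 1 member past 2-fold (0.254% of all genes were higher by that much). Hcn2, a pacemaker channel, was at 11.3 against 7.73 RPKM, 1.47-fold lower (1.28 to 1.68), and Kcnh2, the rapid delayed rectifier, at 27.8 against 21.8 RPKM, 1.27-fold lower (1.18 to 1.37). Calcium handling genes had a median of -0.07, with Slc8a1, the sodium-calcium exchanger, at 0.769 (0.753 to 0.785) and Hrc, a calcium buffer of the reticulum, at 1.20 (1.16 to 1.24). Fkbp1b, which steadies the ryanodine receptor, had a ratio of 2.23 (1.15 to 4.56) from 14 and 30 reads. It was the 1 calcium gene past 1.5-fold (1.14% of all genes were higher by that much).

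Matrix genes were slightly but widely higher. Of 33 compared, 28 had a ratio above 1 (53.7% of all genes), none reached 1.5-fold on the log2(RPKM + 1) scale, and the median was 0.21. Col1a1 and Col1a2, the chains of type I collagen, were at 439.9 against 646 RPKM, 1.47-fold higher (1.45 to 1.49), and at 283 against 404 RPKM, 1.43-fold higher (1.40 to 1.45). Col14a1, a fibril-associated collagen, was 1.51-fold higher (1.41 to 1.62), and Ltbp2, a microfibril protein, 1.51-fold higher (1.42 to 1.60). All 4 counting intervals lay above 1 and below 2-fold. Basement membrane chains Col4a1, Col4a2 and Col18a1 were among the 5 below 1, with Eln and Comp (these 5 were named after their values were seen). In infarcted tissue 30 were above 1 (53.7% of all genes), with a median of 0.52 and 13 at least 1.5-fold higher (1.38%).

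Markers of fibroblasts themselves were level in sum, at 1059 and 1061 RPKM in sum, with a median of 0.01 that turns to -0.01 under TMM and -0.01 under median-of-ratios scaling. Its exception was Cthrc1, a secreted protein of activated fibroblasts, at 27.9 against 49.1 RPKM, 1.76-fold higher (1.57 to 1.97). Matrix proteases and inhibitors had a median of -0.09, with Mmp2, gelatinase A, at 24.7 against 36.3 RPKM, 1.47-fold higher (1.36 to 1.59), and Adamts8, a matrix metalloprotease with thrombospondin repeats, 1.47-fold lower (1.17 to 1.85). Cell cycle genes had 28 of 30 above 1 (53.7% of all genes) and a median of 0.17, with none at 1.5-fold. Plk1, the mitotic polo kinase, was at 6.25 against 9.37 RPKM, 1.4999-fold higher (1.25 to 1.80), Cdca8, part of the chromosomal passenger complex, 1.42-fold higher (1.12 to 1.80), and its partner Birc5 1.37-fold higher (1.13 to 1.67). In infarcted tissue 30 of 30 cell cycle genes were above 1 (53.7% of all genes), with a median of 0.41.

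**Figure D4:**
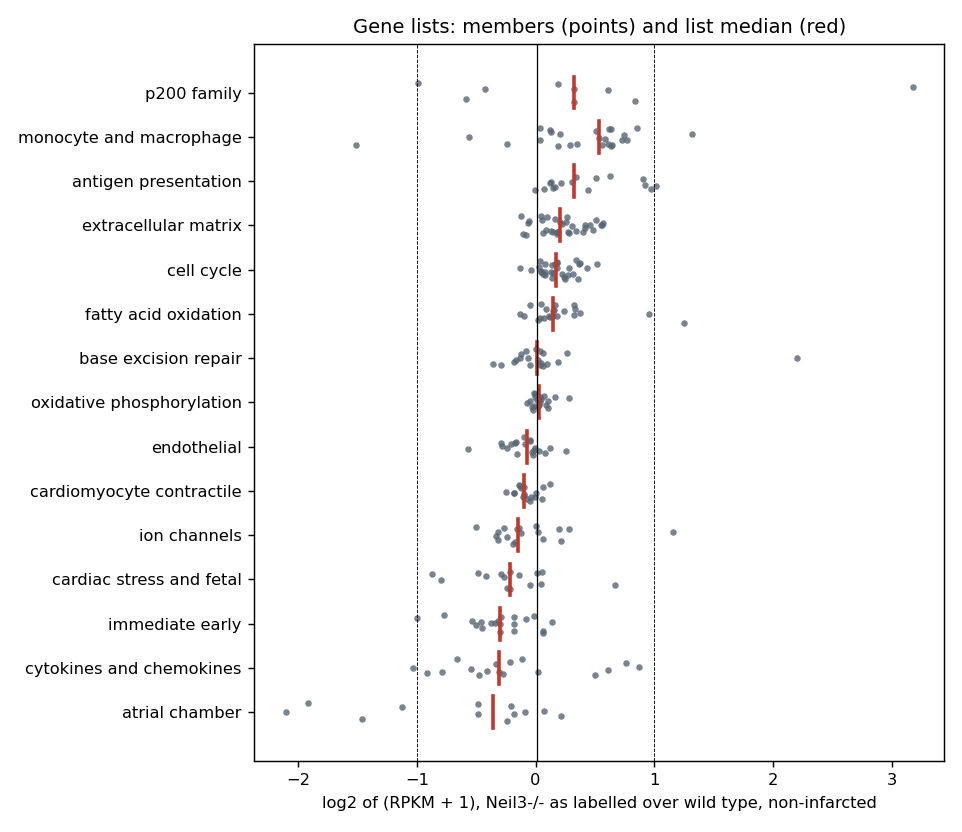
Log2 of the (RPKM + 1) ratio, library labelled Neil3-/- over wild type in non-infarcted tissue, for each compared member (points) of 15 gene lists, with the list median in red; the solid line is the median of all compared genes (0.01) and dashed lines mark 2-fold. Macrophage and antigen presentation genes lie mostly right of the line, immediate early and atrial genes mostly left, and respiratory chain genes on it.

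DNA repair genes other than Neil3 showed little. Of 20 compared base excision repair genes, 11 had a ratio above 1 (53.7% of all genes), and the median was 0.01. Neil3 was the 1 member past 1.5-fold (1.14% of all genes were higher by that much). Neil1, a sister glycosylase, was at 2.75 against 2.93 RPKM, a ratio of 1.06 (0.700 to 1.62), and Neil2 had 14 and 9 reads. Ogg1, which removes oxidised guanine, was 1.36-fold lower (1.02 to 1.81), Nthl1, which removes oxidised pyrimidines, had a ratio of 0.695 (0.345 to 1.36), and Parp1 one of 1.07 (0.989 to 1.17). Most intervals in the family included 1. DNA methylation and hydroxymethylation genes had a median of 0.03, led by the stress gene Gadd45b at 1.41 (1.07 to 1.86) and the methyl-CpG binder Mbd1 at 1.34 (1.18 to 1.53). For p53 targets the median was 0.06, with Sesn2, a stress sensor, at 1.52 (1.15 to 2.01) and Perp, a desmosomal protein, at 0.745 (0.712 to 0.779).

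The p200 genes, interferon-inducible DNA sensors in a cluster on chromosome 1, differed from each other in direction. Of 9 compared in the list, 6 had a ratio above 1 (53.7% of all genes), and on the log2(RPKM + 1) scale 1, Ifi202b, was past 2-fold higher (0.254%) and none past 2-fold lower, where Pyhin1 passes under either other scaling. Pydc3, which RefSeq now names Ifi208 and which the list does not hold, was past 2-fold lower on that scale, at 2.07 RPKM in wild type (92 reads) and 0.445 RPKM in the Neil3-/- library (19 reads), 4.65-fold lower (2.81 to 8.06). It was named after its values were seen. Aim2, the sensor of the DNA inflammasome, was at 1.98 against 4.32 RPKM, 2.18-fold higher (1.65 to 2.91), and AI607873 at 11.3 against 17.8 RPKM, 1.57-fold higher (1.41 to 1.75). Pyhin1 was at 2.23 against 0.620 RPKM, 3.59-fold lower (2.40 to 5.52), and Mnda at 3.62 against 2.08 RPKM, 1.74-fold lower (1.22 to 2.52). Ifi205 had a ratio of 0.706 (0.548 to 0.905), Ifi204 one of 1.28 (1.10 to 1.502), Mndal one of 1.28 (1.09 to 1.498) and Ifi203 one of 1.15 (1.04 to 1.27). The 9 ratios of the list had the same sides of 1 in infarcted tissue, where Ifi202b was at 0.226 RPKM in wild type and 22.8 RPKM in the Neil3-/- library. Genes of the family are near copies in part, and how shared reads were assigned is not given in the sources used here. Interferon-stimulated genes outside it had a median of -0.08, with 13 of 21 below 1 (46.3% of all genes) and Isg15, a ubiquitin-like modifier, at 0.703 (0.531 to 0.926).

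Chromosome 1 held a larger share of the lower genes than of all genes. By RefSeq chromosome (GRCm38.p6), 6 of the 15 genes at least 2-fold lower (40%) and 14 of the 64 at least 1.5-fold lower (21.9%) were on chromosome 1, which held 5.81% of compared genes without noncoding RNA. It was not the only one with such a share. Chromosome 3, with 4.79% of compared genes, held 3 of the 15 (20%). Of the 22 genes at least 2-fold higher, chromosome 1 held 2. Chromosome 3 held 4 of them, and so did chromosome 6, which held 4.87% of compared genes. Hsd17b7, an enzyme of cholesterol synthesis, was at 5.15 RPKM in wild type and 0.841 RPKM in the Neil3-/- library, 6.12-fold lower (4.60 to 8.29). Wdfy1, an endosomal adaptor of Toll-like receptors, was at 14.6 against 4.14 RPKM, 3.54-fold lower (3.09 to 4.06). Pcp4l1, a small calmodulin-binding protein, was at 88.9 against 40.8 RPKM, 2.18-fold lower (2.02 to 2.36). Pydc3, the p200 gene given above, was past 2-fold lower too. Named after its values were seen was the noncoding Snhg11 of chromosome 2, at 2.80 against 0.370 RPKM, 7.58-fold lower (5.21 to 11.4). In infarcted tissue Hsd17b7, Wdfy1 and Pcp4l1 had ratios of 0.443 (0.364 to 0.537), 0.315 (0.286 to 0.347) and 0.305 (0.273 to 0.340). Prg4, also on chromosome 1, was the exception named above.

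Lists for other cells and states stayed near the middle or were thin. Endothelial genes had 16 of 20 below 1 (46.3% of all genes) and a median of -0.07, with the leukocyte-adhesion selectin Sele at 0.553 (0.398 to 0.761). Smooth muscle and pericyte genes (median -0.02) were led by the contractile regulator Cnn1 at 1.59 (1.27 to 1.996). Complement had a median of 0.20, with the C3a receptor C3ar1 at 1.45 (1.33 to 1.58). Heat shock (0.00), antioxidant (-0.01), amino acid stress (0.03), circadian clock (0.03) and sex-linked lists (-0.01) had no member at 1.5-fold on the log2(RPKM + 1) scale. Chac1, a glutathione-degrading enzyme, came nearest at a ratio of 1.70 (1.21 to 2.41). Erythrocyte genes had a median of -0.13 over 5 genes, adipocyte genes one of 0.00 over 6, mesothelial genes 0.12 over 4 (led by the keratin Krt18 at 2.01 (1.48 to 2.74)) and conduction and nerve genes -0.29 over 4. Skeletal muscle genes, 0.74 over 3, rested on Myl1 and on Tnni2, a fast troponin, at 2.27 (1.07 to 5.14). Of lymphocyte genes 1, Cd79b at 1.56 (0.758 to 3.32), reached 1 RPKM, and no lung gene did.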

How the data were processed

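Gene-level tables of 4 libraries were used. Per the file headers, the authors deposited for each gene the number of unique reads (a raw count), its RPKM and the percent of its length covered. RPKM recomputed from reads, length and the library total in the header matched the deposited values. Genes are keyed by Entrez identifier and only genes with reads are listed, so an absent gene was taken as 0 reads. The submitters' processing notes name build mm9. The sources used here give no aligner, counting tool, annotation or strand. Symbols come from the files, and chromosome and biotype from RefSeq for GRCm38.p6, which matched 99.5% of 17550 genes.

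Ratios of RPKM were computed with exact Clopper-Pearson intervals (95%, scipy 1.17.1). A gene was compared at 1 RPKM or more in either library and counted at 2-fold on log2(RPKM + 1). PCR duplicates are not known, so intervals cover counting error only. No test was run with 1 library a group. Scaling alternatives were TMM (edgeR 4.0.16) and median-of-ratios factors. The counting rule was also run on simulated counts that held counting error only. That run cannot show how the rule fares with spread between animals or PCR duplicates.

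Named genes are Neil3, the 15 highest and 15 lowest at 5 RPKM or more without ribosomal and small noncoding RNA, per list the 4 members furthest from 1 at most, with all members of the atrial, p200, base excision repair and sex-linked lists open to naming. Some genes that these rules name are not reported here. The 38 lists hold 609 genes, of which 600 were found. Members, lists and promoter motifs were chosen with earlier results of these data known. Close copies (p200, MHC, Chi3l3, Ces1d, globins) and overlapping or antisense genes are uncertain.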

Additional observations from a re-analysis of the deposited data

Results flagged for a closer look

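For 12 genes given here, the ratio of the library labelled Neil3-/- to wild type lay below 1 in one region and above 1 in the other, with both counting intervals clear of 1. Only genes named by the rules or after their values were seen were searched (199 before some were left out), Arg1 among the latter. Genes outside that set were not searched and no share over all genes was computed, so the number 12 reflects the naming. The difference between regions was not tested, since each ratio compares single libraries. Lower in non-infarcted and higher in infarcted tissue were 4 genes. Arg1 had a ratio of 0.647 (0.521 to 0.802) in non-infarcted and 1.36 (1.30 to 1.43) in infarcted tissue. S100a8 had one of 0.587 (0.366 to 0.929) in non-infarcted and 1.15 (1.03 to 1.29) in infarcted tissue, Dkk3 one of 0.684 (0.587 to 0.796) in non-infarcted and 1.46 (1.21 to 1.76) in infarcted tissue, and Gclm, a subunit of the enzyme that starts glutathione synthesis, one of 0.801 (0.684 to 0.937) in non-infarcted and 1.14 (1.02 to 1.28) in infarcted tissue.

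The reverse held for 8 genes. Among respiratory chain genes, the ratio was 1.07 (1.05 to 1.10) in non-infarcted and 0.739 (0.715 to 0.764) in infarcted tissue for Uqcrc1, 1.08 (1.05 to 1.11) in non-infarcted and 0.803 (0.772 to 0.836) in infarcted tissue for Cox4i1, and 1.12 (1.07 to 1.17) in non-infarcted and 0.685 (0.636 to 0.737) in infarcted tissue for Cox7a1. For the muscle enolase Eno3 it was 1.22 (1.19 to 1.25) in non-infarcted and 0.692 (0.660 to 0.726) in infarcted tissue, and for Hrc 1.20 (1.16 to 1.24) in non-infarcted and 0.892 (0.830 to 0.958) in infarcted tissue. Abcc9, the sulfonylurea receptor of vascular and cardiac potassium channels, had 1.19 (1.15 to 1.24) in non-infarcted and 0.949 (0.903 to 0.998) in infarcted tissue. The endothelial tight junction gene Cldn5 had 1.21 (1.01 to 1.46) in non-infarcted and 0.789 (0.689 to 0.904) in infarcted tissue, and the epicardial enzyme of retinoic acid synthesis Aldh1a2 1.10 (1.01 to 1.19) in non-infarcted and 0.914 (0.866 to 0.964) in infarcted tissue. The deposited scaling was used for these values. Median-of-ratios factors moved the log2 ratio in non-infarcted tissue by -0.02. That puts the lower limits of Cldn5 and Aldh1a2 there, 1.01 each, below 1. The whole oxidative phosphorylation list was at a median log2 of 0.03 in non-infarcted and -0.33 in infarcted tissue. The contractile list was at -0.09 and -0.59, with 18 of 18 genes below 1 in infarcted tissue (46.2% of all genes). How far the muscle genes given here follow that wider difference was not tested.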

How the results depend on the processing

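The counts of 31 higher and 23 lower genes depended on how low genes were treated. They became 70 and 48 with 0.1 RPKM added, 16 and 9 among genes at 5 RPKM or more, 19 and 15 where the counting interval also had to lie wholly past 1.5-fold, and 139 and 75 at 1.5-fold. Without ribosomal and small noncoding RNA they were 22 and 15. With 0.5 RPKM added (41 and 34), no filter (31 and 23), TMM factors (31 and 26) and median-of-ratios factors (30 and 26) each stayed within 1.5 times. Both scalings moved the log2 ratio of RPKM by -0.02, and that of (RPKM + 1) by less in low genes. They turned the sign of the small medians of the fibroblast, base excision repair and adipocyte lists, all close to 0. The Egr1 and H2-Aa calls lie close to 2-fold, and H2-Aa drops below it under median-of-ratios factors. Adding 1 RPKM shrinks ratios of low genes, from 80.95 to 9.06 for Ifi202b, 53.2 to 12.04 for BC002163 and 6.57 to 4.61 for Neil3. No replicate could be left out and no paired analysis was possible because each group has 1 library. Depth limits what can be said of genes under about 1 RPKM, where a library holds few reads, and a difference between animals cannot be separated from one between genotypes.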
